A study of Sus scrofa with 2 samples.

Results

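Vesicle coats and sorting adaptors are the protein machines that pick cargo and bend membrane in the secretory and endocytic pathways. The data were the genes of that machinery in a CUT&Tag profile from pig testis of ZBTB16, also called PLZF, a zinc finger protein that binds DNA. CUT&Tag brings a transposase to an antibody-marked site in chromatin and sequences the fragments it cuts out, so a peak marks where such fragments pile up. The only group was ZBTB16 CUT&Tag of WT immature spermatogonia from porcine testicles, with 2 libraries, replicate 1 and replicate 2, of 100000 cells each. The labels give no age or treatment, and nothing in them tells if the libraries are from 1 animal or several, so the spread between them may be technical. No IgG library or RNA-seq was analysed here, and how much of each peak an unspecific antibody would give was not tested.

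The genes were chosen by symbol: the adaptor protein genes AP1 to AP5, the VPS genes, the COPI, COPII and clathrin genes, as matched by prefix. The Sscrofa11.1 gene table held 82 such genes among 16491 protein-coding genes with a unique symbol. Of these 82 genes, 57 had at least 1 peak assigned to them by the authors, with 63 of the 10273 peaks of replicate 1 and 50 of the 7301 peaks of replicate 2. A gene is called bound here where the authors assigned it a promoter-class peak in both libraries; that class reached up to 3 kb upstream of the transcription start site (TSS). The group was proposed because adaptor genes had stood high in these same lists, so the number bound and the height of their peaks are a description, with no test. All positions are on Sscrofa11.1. Fold enrichment is the authors' ratio of a peak to its local background, and summit fragments are the whole number of fragments at its summit, recovered from the deposited fold and p-value.

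Clathrin forms the outer cage of vesicles at the plasma membrane, the trans-Golgi network and endosomes, and it binds cargo through the adaptor complexes AP-1 and AP-2. AP-3 sorts cargo to lysosomes and related organelles, and AP-4 and AP-5 act at the trans-Golgi network and late endosomes without clathrin. COPII coats carry cargo out of the endoplasmic reticulum, and COPI coats return it from the Golgi. Retromer, ESCRT, HOPS, CORVET, GARP and EARP, largely named from yeast vacuolar protein sorting (VPS) mutants, sort, recycle, tether and fuse endosomes. In the mouse, ZBTB16 is known for the maintenance of spermatogonial stem cells. Among 11 marker genes of the undifferentiated stage, 5 were bound in the sense above (ETV5, ID4, TAF4B, PIWIL4 and EGR2), while ZBTB16, SALL4, NANOS2 and UTF1 had no assigned peak. None of the 2 general germ cell, 3 differentiating, 3 Sertoli and 3 Leydig cell markers was bound. Among these, DAZL, KIT, STRA8, GATA4 and INSL3 had an assigned peak that fell short of that rule, as did UCHL1 and GFRA1 of the first list. Over all genes 20.8% were bound, so lists this short say little, and a peak in this assay is not a measure of expression.

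Coat and sorting genes carried promoter peaks in both libraries at 32 of 82 genes (39.0%), against 3438 of all 16491 genes (20.8%). Counted by itself, replicate 1 had one at 45 of the 82 (54.9%, against 32.8% of all genes) and replicate 2 at 37 (45.1%, against 24.9%). Any assigned peak in either library was found at 57 of 82 genes, against 50.7% of all genes. By name, 14 of 29 AP genes (48.3%) and 10 of 20 COPI, COPII and clathrin genes (50.0%) were bound, against 8 of 33 VPS genes (24.2%), a difference that was not tested. At bound coat and sorting genes the median fold was 5.62 in replicate 1 and 5.12 in replicate 2, against 5.85 and 5.45 over all bound genes. By the lower of its percentile ranks among promoter peaks of the same library, the median bound member stood at the 34.9th percentile, against 44.9 for all bound genes, and 12 of the 32 stood above the 50th. That order was not stable: with replicate 2 left out, the median of the 45 members with a promoter peak was 54.7, against 50.5 for all such genes, and with replicate 1 left out it was 42.0, against 50.4.

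**Figure D1:**
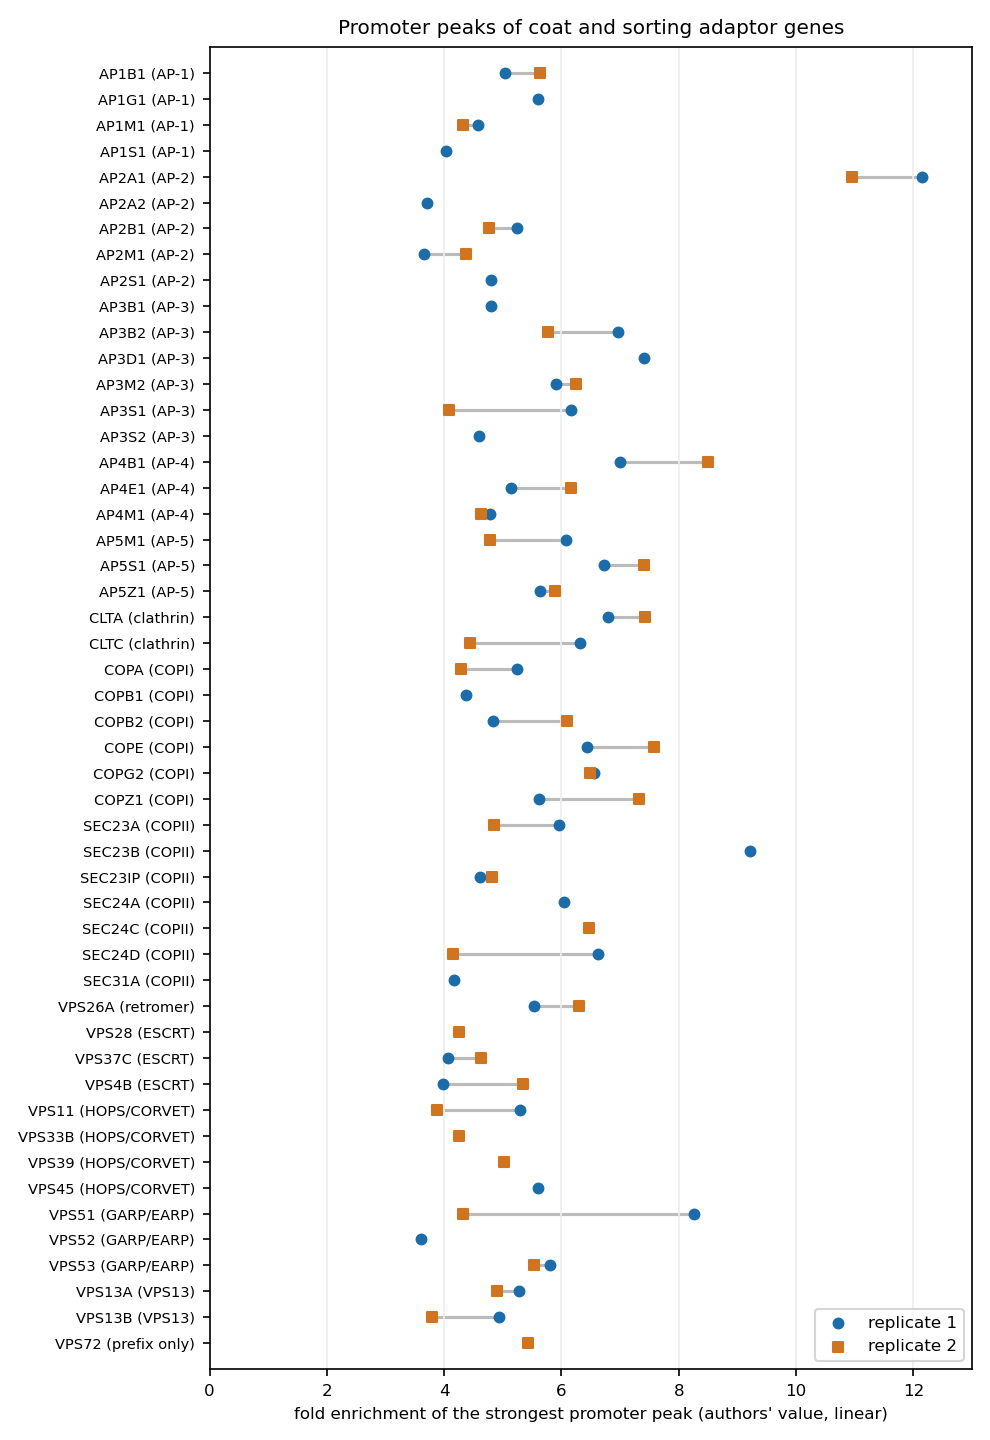
Fold enrichment (linear, x axis) of the strongest promoter peak of each coat or sorting gene with such a peak in at least 1 library (50 genes, rows, with the complex in brackets); circles are replicate 1, squares replicate 2, and a grey line joins a gene with both. AP2A1 stands at 12.1 and 11.0, and no other point exceeds 9.22 (SEC23B); for SEC24D, AP2B1 and AP3B2 the strongest peaks of the libraries lie at different start sites.

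AP-2, the adaptor of clathrin-mediated endocytosis at the plasma membrane, was bound at 3 of its 5 subunit genes, against 20.8% of all genes. By the looser count of a promoter peak in at least 1 library, all 5 had one, as did 50 of the 82 coat and sorting genes. The share of all genes by that looser count is not given here. AP2A1, a large alpha subunit that binds membrane lipid and cargo signals, had the strongest peak of the whole group (chromosome 6, 54785745 to 54786496). Its fold was 12.1 in replicate 1 and 11.0 in replicate 2, from 106 summit fragments (exact 95% Poisson interval 86.8 to 128) and 73 (57.2 to 91.8). Both summits fell on the same base, at -251 bp from the TSS, and AP2A1 was the 1 bound member above the 90th percentile in both libraries, at 99.8. The recovered background there was also high, at 7.81 and 5.76 fragments, against medians of 2.69 and 1.99 over the bound members; its part in the result was not tested. A weaker peak lay in an AP2A1 intron, with its summit 11797 bp into the gene in replicate 1 (5.82-fold and 4.98-fold, 17 and 12 fragments). AP2A2, the paralogous alpha subunit, had only a weak upstream peak in replicate 1 (3.70-fold, 12 fragments) and none in replicate 2. AP2M1, the mu subunit that reads tyrosine-based signals, was bound at low height, with 3.65-fold and 4.37-fold peaks of 16 and 17 fragments. AP2B1, the beta subunit that binds clathrin, had promoter peaks at several annotated start sites. That at 39926381 to 39927259 of chromosome 12 had 5.25-fold and 4.19-fold with 17 and 10 fragments. That at 39940610 to 39941186 had 5.17-fold and 4.77-fold with 17 and 13 fragments, and another was in replicate 1 only (3.64-fold, 9 fragments).

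AP2S1, the small sigma subunit, shows how the class boundary works. Its peaks overlapped almost fully (4.79-fold and 5.66-fold, with summits 262 and 261 bp downstream of the TSS), but the replicate 2 peak began 1 bp past the TSS and was listed as 5′ UTR, so AP2S1 falls just outside the bound genes. VPS13B lies just inside, with 12 fragments in replicate 1 and 8 in replicate 2 (4.93-fold and 3.79-fold) and the lowest −log10 q-value of any bound member, 1.87 in replicate 2. Counting promoter and 5′ UTR peaks alike gave 38 bound members (46.3%, against 24.0% of all genes).

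AP-1, which sorts between the trans-Golgi network and endosomes, was bound at 2 of 9 genes. AP1B1, its beta subunit, had 5.03-fold and 5.63-fold peaks of 17 fragments in each library, and AP1M1, the ubiquitous mu subunit, had 4.58-fold and 4.33-fold peaks of 16 and 13. In replicate 1 alone, promoter peaks lay at AP1G1, the main gamma subunit (5.60-fold, 17 fragments), and at AP1S1, a sigma subunit (4.03-fold, 15 fragments). AP1AR, a regulator of AP-1, had 5′ UTR peaks in both libraries (6.63-fold and 5.42-fold). The other paralogs, AP1G2, the epithelial AP1M2, AP1S2 and AP1S3, had no assigned peak.

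AP-3 was bound at 3 of 7 genes, and both of its neuronal paralogs were among them. AP3B2, the beta subunit of neurons, had a promoter peak at 52202470 to 52203068 of chromosome 7 (6.96-fold and 5.46-fold, 18 and 14 fragments) and a further pair at another start site (4.93-fold as 5′ UTR and 5.76-fold as promoter). AP3M2, the mu subunit of neurons, had 5.91-fold and 6.24-fold promoter peaks of 23 and 21 fragments, and also a distal peak in both libraries whose summit lay at -16674 bp in replicate 1 (4.41-fold and 4.41-fold). Of their ubiquitous counterparts, AP3B1 had its promoter peak in just replicate 1 (4.81-fold, 14 fragments), and AP3M1 had none assigned, while a peak assigned to ADK (8.57-fold and 6.96-fold) covered one end of AP3M1. AP3S1, a sigma subunit, had 6.16-fold and 4.09-fold peaks of 24 and 11 fragments, and its paralog AP3S2 a peak in replicate 1 only (4.59-fold, 10 fragments). AP3D1, the single delta subunit, had a tall peak in replicate 1 (7.40-fold, 37 fragments, 26.1 to 51.0; chromosome 2, 76428051 to 76428379) and none in replicate 2. Among 621 peaks of replicate 1 that were as tall or taller by summit fragments, 11 (1.77%) had no counterpart in replicate 2, AP3D1 included.

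AP-4 and AP-5, the adaptors that work without clathrin, were each bound at 3 of 4 genes. AP4B1, the beta subunit, had the second highest rank of the group, with 7.01-fold and 8.49-fold peaks of 25 (16.2 to 36.9) and 28 fragments (18.6 to 40.5) on chromosome 4 (106656554 to 106657155). AP4E1, the epsilon subunit, had 5.14-fold and 6.16-fold peaks of 18 and 17 fragments. AP4M1, the mu subunit, had 4.78-fold and 4.63-fold peaks of 28 and 23 fragments, and the small subunit gene AP4S1 had none. In AP-5, the sigma subunit gene AP5S1 had 6.73-fold and 7.40-fold peaks of 35 (24.4 to 48.7) and 27 fragments (17.8 to 39.3). AP5Z1, the zeta subunit, had 5.63-fold and 5.88-fold peaks of 19 and 17 fragments. AP5M1, the mu subunit, had 6.07-fold and 4.79-fold peaks of 19 and 13 fragments, and AP5B1, the beta subunit, had none.

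Among the cage and the COP coats, 10 genes were bound. CLTA, a clathrin light chain, had 6.79-fold and 7.43-fold peaks of 18 and 19 fragments with summits at -18 and -34 bp from the TSS. CLTC, the clathrin heavy chain, had 6.32-fold and 4.45-fold peaks of 25 and 12 fragments, and CLTB, the other light chain, had no peak. COPI was bound at 5 of 8 genes. COPE, the epsilon subunit (chromosome 2, 58930326 to 58931109), had 6.44-fold and 7.59-fold peaks of 23 and 22 fragments. COPG2, a gamma subunit, had 6.55-fold and 6.48-fold peaks of 22 fragments each, and COPZ1, a zeta subunit, had 5.61-fold and 7.32-fold peaks of 22 and 25. These 3 were the tallest of the coat by fragments. COPB2, the beta prime subunit, had 4.84-fold and 6.10-fold peaks of 13 and 16 fragments, and COPA, the alpha subunit, had 5.23-fold and 4.28-fold peaks of 14 and 9. The fold was higher in replicate 2 at 3 of these and higher in replicate 1 at the other two. COPB1 had a peak in replicate 1 only (4.37-fold, 11 fragments), and COPG1 and COPZ2, paralogs of bound genes, had none.

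COPII was bound at 3 of 9 genes, but 8 of 9 had an assigned peak in either library, against 50.7% of all genes. SEC23A, which with SAR1 and SEC24 forms the inner coat, had 5.96-fold and 4.84-fold peaks of 22 and 15 fragments. A further peak, in replicate 1 alone (11 fragments), was classed as downstream but had its summit upstream of SEC23A, at -16502 bp from the TSS. SEC23IP, which binds SEC23, had 4.61-fold and 4.81-fold peaks of 15 and 13 fragments, and a distal one in replicate 1 alone (3.69-fold). SEC24D, a cargo-binding subunit, had a peak pair at 104885925 to 104886812 of chromosome 8 (5.05-fold and 4.15-fold, 13 and 10 fragments). A stronger SEC24D peak at another start site (6.62-fold in replicate 1) overlapped a replicate 2 peak of 6.31-fold that was assigned to USP53, whose gene end lies 12 bp away. SEC23B, the paralog of SEC23A, was another case of this kind. Its 9.22-fold replicate 1 peak (31 fragments, 21.1 to 44.0; chromosome 17, 26759946 to 26760626) overlapped an 11.4-fold replicate 2 peak of 36 fragments that was assigned to LOC102163552, so SEC23B is not counted as bound although a promoter peak covers the same site in both libraries. SEC24A, a cargo-binding subunit (6.04-fold, with a 5′ UTR peak of 4.45-fold), and SEC31A, of the outer coat (4.16-fold), had such peaks in replicate 1 and not in replicate 2, and SEC24C (6.47-fold) the reverse. SEC31B had 5′ UTR peaks in both (3.99-fold and 5.42-fold), and SEC24B had none.

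**Figure D2:**
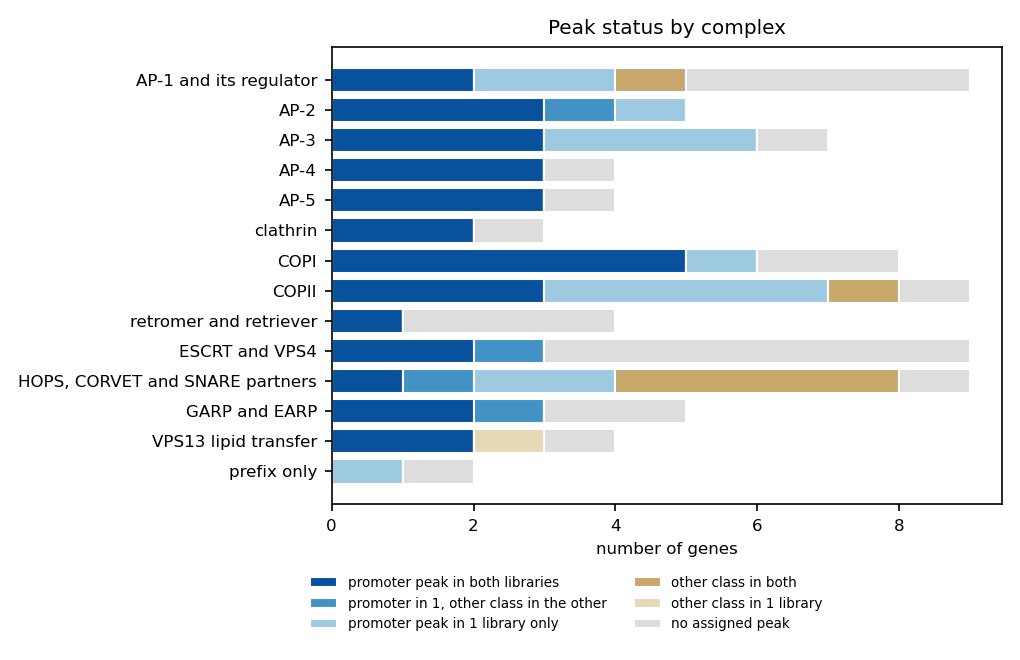
Number of genes (x axis) by complex (rows), split by whether the authors assigned a promoter peak in both libraries, a promoter peak in 1 and another class in the other, a promoter peak in 1 library only, another class only, or no peak. The AP-2 bar has no gene without a peak, while 6 of 9 ESCRT and VPS4 genes have none.

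VPS genes were bound at a share near that of all genes, 8 of 33 (24.2%) against 20.8%. Others among them had peaks of other classes or in 1 library. ESCRT and VPS4, which bud vesicles into endosomes and cut membrane necks, had 2 of 9: VPS37C of ESCRT-I (4.07-fold and 4.63-fold, 14 fragments each) and the ATPase VPS4B (3.99-fold and 5.34-fold, 10 and 13 fragments), while its paralog VPS4A and also VPS36, VPS37B and VPS37D had none. VPS28 of ESCRT-I had a 5′ UTR peak in replicate 1 (3.89-fold) and a promoter peak in replicate 2 (4.25-fold). HOPS and CORVET, the tethers of late and early endosomes, were counted with the related SNARE-binding proteins VPS33B and VPS45. Of these 9 genes 1 was bound, VPS11 (5.29-fold and 3.87-fold, 16 and 9 fragments). An assigned peak in either library was found at 8 of the 9, against 50.7% of all genes. VPS8 (5.61-fold and 6.29-fold, 5′ UTR), VPS33A (6.34-fold and 6.04-fold, exon), VPS16 (5.06-fold and 4.31-fold, intron and 5′ UTR) and VPS41 (4.43-fold and 4.52-fold, about 8 kb into the gene) had overlapping peaks of other classes in both libraries. VPS39 had a 5′ UTR peak of 4.56-fold and a promoter peak of 5.02-fold. VPS45 had its promoter peak in replicate 1 alone (5.59-fold), VPS33B in replicate 2 alone (4.26-fold), and VPS18 had none.

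GARP and EARP, the tethers of vesicles that return from endosomes, were bound at 2 of 5 genes. VPS51, a shared subunit, had 24 fragments (15.4 to 35.7) and 8.26-fold in replicate 1, but 10 (4.80 to 18.4) and 4.33-fold in replicate 2, the widest gap of any pair in the group. VPS53 had 5.80-fold and 5.54-fold peaks of 15 and 13 fragments upstream of the TSS. VPS52 had its promoter peak in replicate 1 alone (3.61-fold) and a stronger peak past its 3′ end in both libraries (6.64-fold and 5.66-fold; chromosome 7, 29622697 to 29623800), and VPS50 and VPS54 had none. Of retromer, which recycles cargo from endosomes, VPS26A was bound (5.53-fold and 6.31-fold, 25 fragments in each library), and VPS26B, VPS29 and VPS35 had no assigned peak. The VPS13 genes, whose products move lipids between membranes, were bound at VPS13A (5.28-fold and 4.90-fold, 20 and 15 fragments) and VPS13B; VPS13D had a 5′ UTR peak in replicate 2 only (7.21-fold) and VPS13C had none. Of the genes that share only the prefix, VPS72, a subunit of chromatin remodelling complexes, had a promoter peak in replicate 2 (5.44-fold) over a replicate 1 peak assigned to PIP5K1A (8.07-fold), and VPS9D1 had none.

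Each peak has 1 assigned gene, so a gene beside another can lack a peak of its own. Of the 25 genes with none assigned, 5 had in both libraries a peak credited to a neighbour and lying no more than 1 kb from a gene end, and at 4 of them that peak covered the gene end itself. The scaffold VPS35 had the strongest, a peak assigned to ORC6 (10.5-fold and 9.0-fold, 42 and 35 fragments; chromosome 6, 37943538 to 37944344), which encodes a subunit of the origin recognition complex. VPS29, another retromer subunit, had a peak assigned to RAD9B (7.19-fold and 5.01-fold), and VPS37A of ESCRT-I had a peak assigned to CNOT7 (5.98-fold and 6.13-fold). AP3M1 was the fourth, beside ADK, and VPS25 of ESCRT-II had a peak assigned to WNK4 nearby (3.94-fold and 3.90-fold). A further 4 of the 25, AP1S2, VPS18, VPS26B and VPS50, had such a peak in 1 library, and 16 had none. The same shares over all genes without an assigned peak are not given here, so these counts show no trait of the group. By any peak within 1 kb of either gene end, 46 of 82 genes counted (56.1%), against 29.0% of all genes. The gene table gives no strand, so which of the ends is the start was not read from it. Among the 32 bound genes, 10 (31.2%) had another gene within 1 kb of their start, such as MCM7 at AP4M1, ATG12 at AP3S1 and DCLRE1B at AP4B1, against 30.5% of all bound genes. A peak at such a pair cannot be told apart as belonging to either gene.

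**Figure D3:**
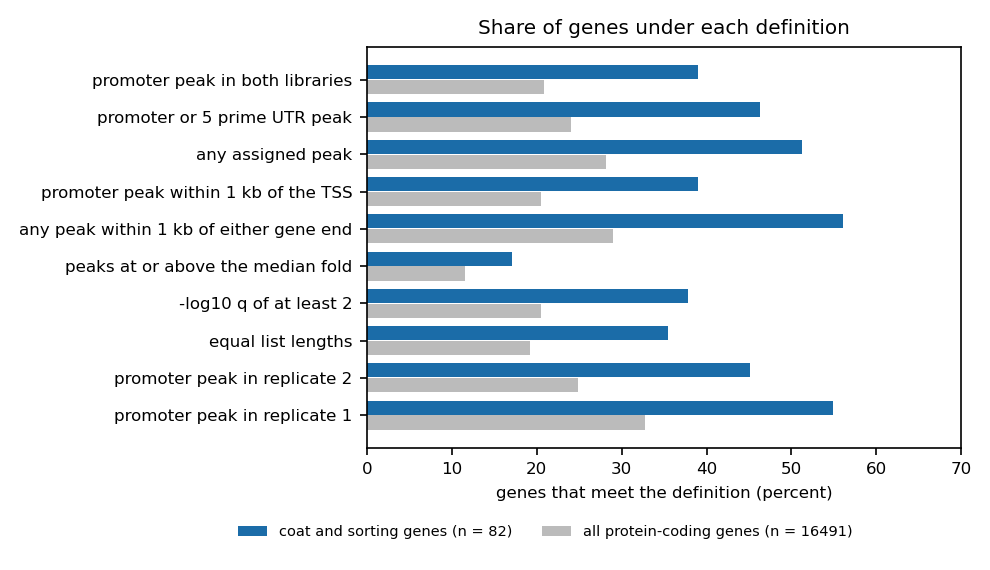
Share of genes (percent, bars from 0) that meet each definition of a peak at the gene, with the 82 coat and sorting genes above all 16491 protein-coding genes in each pair. The upper bar is longer in each pair, from 17.1% against 11.6% for peaks at or above the median fold to 56.1% against 29.0% for peaks near either gene end.

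Most peaks of coat and sorting genes were found in both libraries. Of the 63 replicate 1 peaks, 48 shared 1 bp or more with a peak of replicate 2 (76.2%, 95% Wilson interval 64.4 to 85.0), against 53.2% of all 10273. By the stricter rule that the summits lie within 100 bp of each other, the share was 30.2%, against 27.2% of all peaks. Of the 50 replicate 2 peaks, 47 overlapped a replicate 1 peak (94.0%, 83.8 to 97.9), against 75.0% of all 7301. Promoters held 48 of the 63 replicate 1 peaks, against 6251 of all 10273. Among promoter peaks alone the replicate 1 shares were 75.0% (36 of 48) and, over the whole list, 66.9%. In replicate 2 the promoter shares were 94.9% (37 of 39) and, over the whole list, 86.7%. Among replicate 1 peaks of 13 to 16 fragments, 16 of 22 at these genes recurred (72.7%), against 42.3% of all such peaks, and among those of at least 23 fragments 13 of 14 (92.9%), against 91.2%. Of those with up to 12 fragments 3 of 9 recurred (33.3%, against 17.9%), and of those with 17 to 22, 16 of 18 (88.9%, against 68.5%). The shares by fragments take peaks of every class, not promoter peaks alone. These shares were not tested, since the peaks of 1 gene are not independent. The Wilson intervals treat them as independent and are no test of a difference.

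No overlapping peak was called different in height between the libraries. In 49 peak pairs at these genes, the log2 ratio of replicate 2 over replicate 1, scaled by relative depth, had a median of 0.01 and ran from -0.96 at VPS51 to 0.68 at VPS4B. A two-sided exact binomial test with Benjamini-Hochberg adjustment over all 5460 shared peaks called 0 of the 49 and 0 of the 5460 (0.0%, lowest adjusted exact p = 1.0). At an unadjusted exact p under 0.05 there were 0 of the 49 and 58 of the 5460 (1.06%). The lowest unadjusted exact binomial p at these genes was 0.0845, at VPS51. The lack of a call does not show that the heights were alike. A peak must pass in both lists to enter, which narrows this spread, and the median bound coat or sorting gene had 19 and 15.5 fragments. Over the 32 bound genes the fold of the strongest peaks in the 2 libraries had a Pearson correlation of 0.543 on the log2 scale and a Spearman correlation of 0.402, and 0.342 and 0.343 without AP2A1. These points share 2 libraries and describe these lists only. At SEC24D, AP2B1 and AP3B2 the strongest peaks of the libraries lay at different start sites, so their values do not compare 1 site. Apart from AP2A1, the counting intervals of neighbouring ranks overlap.

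**Figure D4:**
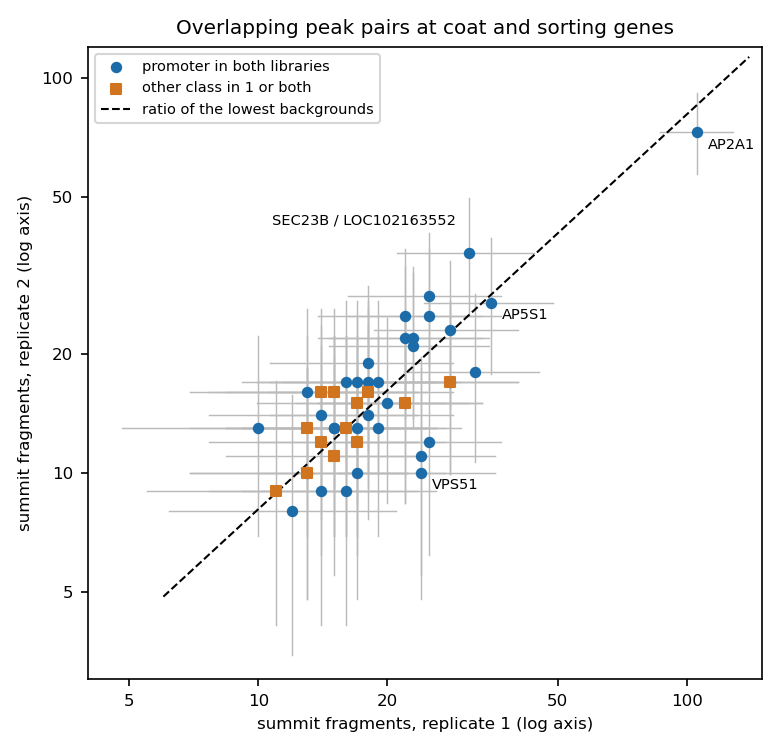
Summit fragments in replicate 1 (x, log axis) and replicate 2 (y, log axis) for the 49 overlapping peak pairs at coat and sorting genes, with exact 95% Poisson intervals as grey lines and the ratio of the lowest backgrounds as a dashed line. AP2A1 lies apart at 106 and 73, and VPS51 is farthest below the line at 24 and 10; names joined by a stroke are peaks assigned to different genes.

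Promoter summits lay close to the start sites. Among bound genes whose strongest peak spans the TSS, the median summit was at -49 bp in replicate 1 (30 genes) and -74 bp in replicate 2 (29 genes), against -21 and -10 bp over all bound genes. Within 200 bp of the TSS lay 63.3% and 75.9% of these summits, against 70.4% and 72.2%. Requiring that a peak span the TSS by itself keeps summits near it. Between the libraries, the summits of the 35 overlapping promoter pairs whose replicate 1 peak was assigned to a member were a median of 113 bp apart, against 92 bp over all 3936 such pairs, from 0 bp at AP2A1 to 571 bp at AP4M1, where the peak is 1243 bp wide in replicate 1. AP4M1 is a gene that overlaps MCM7 at its start. One more promoter pair, assigned to PIP5K1A in replicate 1 and to VPS72 in replicate 2, had summits 164 bp apart.

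**Figure D5:**
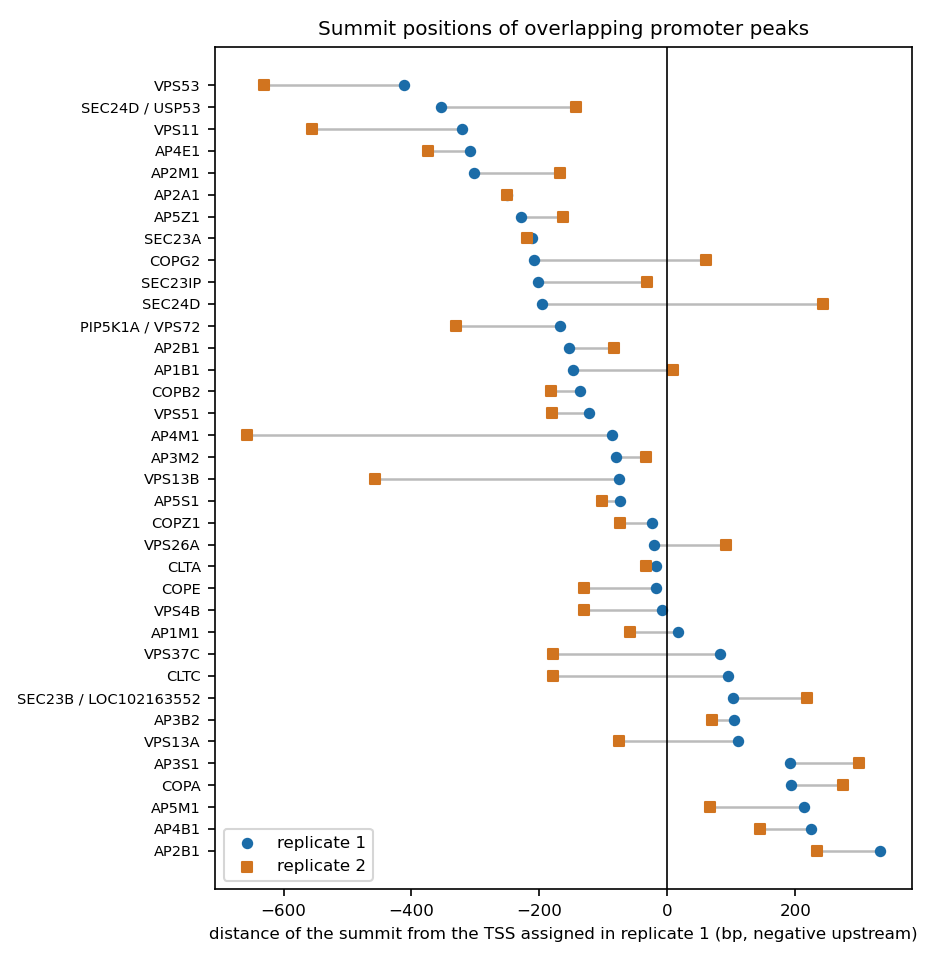
Distance of peak summits from the TSS that the authors assigned in replicate 1 (bp, negative upstream) for overlapping promoter peak pairs (rows, ordered by the replicate 1 summit); circles are replicate 1, squares replicate 2, grey lines join a pair. The AP2A1 summits coincide at -251 bp, and AP4M1 has the longest line.

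Other genes of the same pathways were counted from a list of accessory genes. Of 132 listed accessory genes in the table, 44 had a promoter peak in both libraries (33.3%), against 20.8% of all genes. By replicate 1 peaks only, that is without replicate 2, 72 accessory genes counted (54.5%, against 32.8%). RAB and TBC genes, the small GTPases of vesicle traffic and their regulators, overlap this list in part, with RAB5B for example in both. Of 99 RAB and TBC genes, 35 were bound, that is in both libraries (35.4%, against 20.8% of all genes). Clathrin accessory genes had 14 of 42, led by NUMB, an endocytic adaptor that inhibits Notch (9.49-fold and 7.70-fold), DNM2, the dynamin that severs vesicle necks (8.98-fold and 7.29-fold), and HIP1, which links clathrin to actin (6.29-fold and 6.26-fold). COPII and endoplasmic reticulum exit genes had 6 of 11, among them TFG (9.36-fold and 7.10-fold), MIA2 (5.57-fold and 6.05-fold) and SEC16A, the scaffold of exit sites (8.63-fold and 5.53-fold). Tethering and class III phosphoinositide kinase genes had 6 of 10, with RAB5B (7.74-fold and 6.30-fold), RAB5C (6.14-fold and 6.81-fold) and UVRAG (7.02-fold and 6.02-fold) highest. ESCRT genes had 5 of 23, with STAM2 (5.53-fold and 6.22-fold), IST1 (5.35-fold and 5.36-fold) and CHMP3 (5.06-fold and 6.34-fold), and COPI partners 5 of 19, with ARF6 (5.96-fold and 6.38-fold), GBF1 (5.83-fold and 6.01-fold) and ARFGAP3 (5.62-fold and 6.49-fold). Sorting nexin, WASH and commander genes had 5 of 16, with SNX32 (8.89-fold and 7.03-fold), WASHC3 (7.41-fold and 6.52-fold) and SNX27 (6.47-fold and 5.74-fold). Partners of AP-3 and AP-5 had 3 of 11: BLOC1S6 (5.14-fold and 5.45-fold), SNAPIN (5.82-fold and 5.04-fold) and ZFYVE26, which binds AP-5 (4.15-fold and 4.90-fold). No difference between these sets was tested.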

How the data were processed

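ZBTB16 CUT&Tag peaks were listed per library, not pooled, for 2 libraries of 1 group. Coordinates are on Sscrofa11.1, the build in the submitters' processing notes. Aligner, peak caller, caller control and read depth: not given in the sources used here. Per the file headers, the deposited lists give for each peak a fold enrichment (a linear ratio), the p-value and q-value as −log10, a score (not used), its class, gene and distance to the TSS as the authors assigned them. Deposited −log10 q-values began at 1.31 in each list. Each peak has 1 assigned gene.

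Summit fragments and background were solved per peak from fold = (fragments + 1)/(background + 1) and the Poisson upper tail of the deposited p-value, within a relative tolerance of 1e-05; 99.92% and 99.9% of peaks gave a whole number, and the others, 8 and 7 peaks, were left out of the fragment test. The lowest backgrounds, 1.21 and 0.979 fragments, gave the relative depth of 1.23. Intervals are exact Poisson or Wilson at 95% and cover counting error only. Overlap means at least 1 bp. The recovery of fragments and the library split test were tested on simulated data, where the split test called only a minority of the changed peaks. The tools were scipy 1.17.1 and pandas 2.3.3 for tests and tables, with numpy 2.4.6 and, for plots, matplotlib 3.10.9, under Python 3.11.15. Gene names and ends came from the RefSeq table of Sscrofa11.1, which gives no strand, so nearness was taken to either gene end.

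All 82 genes are accounted for, and from the list of accessory genes up to 3 bound genes per set with the highest lower fold are named. The members and lists were chosen with earlier results of these data known. AP3D1 was set against peaks of like height after its values were seen. No sequence or motif is given.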

Additional observations from a re-analysis of the deposited data

How the results depend on the processing

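Of 29 alternatives to the results above, 24 kept the value within the limit set for its kind. Gene counts had to stay within 1.5 times, and the share of recurring peaks within its Wilson interval. The median percentile had to move by less than the standard deviation of the 2 library medians, 57.1 and 45.0, a spread from 2 values only. The split test had to stay at 0 calls. With peaks at or above the median fold only, 14 members (17.1%, against 11.6% of all genes) and 28 accessory genes (21.2%) were bound. With each library left out in turn, 37 to 45 members and 51 to 72 accessory genes had a promoter peak in the remaining library (38.6% to 54.5% of accessory genes, against 24.9% to 32.8% of all genes), and the median percentile of members was 42.0 to 54.7, against 50.4 to 50.5 for all genes with such a peak. With summits required within 100 bp in place of overlapping peaks, 30.2% of member peaks recurred, against 27.2% of all peaks. The cause of these changes was not tested. Leaving out the VPS13 genes and those that share only the prefix gave 30 of 76 bound (39.5%). The library split test called 0 peaks under its 3 alternatives (depth from summed fragments, promoter pairs only, pairs of at least 60 fragments), with 57, 46 and 26 pairs at an unadjusted exact binomial p under 0.05, of which 0 were at these genes. No paired analysis was possible because the study has 1 group here. At the median bound member, 19 and 15.5 fragments limit precision. A gene with no peak assigned to it may still have one credited to a neighbour.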
